A study of Mus musculus with 10 samples.

Results

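Blood vascular endothelial cells (BECs) with transcripts of *Sele* were collected from single-cell libraries of mouse ear skin. A cell barcode was taken when it had at least 500 detected genes, at most 10% of its transcripts on mitochondrial genes, at least 1 *Flt1* transcript and at least 2 *Sele* transcripts. It was also held to at most 1 transcript of *Prox1* (lymphatic endothelium), at most 1 of *Pdgfrb*, *Kcnj8* and *Vtn* together (mural cells), at most 2 of *Col1a2* (fibroblasts) and fewer than 3 of *Gkn3*, *Sema3g* and *Gja5* together (arteries). These limits left 201 cells of 9016 barcodes, 124 from the IgG library and 77 from the Ang2 Ab library. The wider gate, without the condition on *Sele*, held 2460 BECs. Resting venous cells (128) were those of the same gate with at least 3 transcripts of *Ackr1* and *Selp* together and none of *Sele*. A capillary group (999 cells) with at least 3 transcripts of *Rgcc* and *Car4*, fewer than 3 of *Ackr1* and *Selp* and none of *Sele* served as a second reference. Because the cells were chosen by their measured *Sele* transcripts, the level of *Sele* and its contrast with the resting cells are a description and support nothing further, and a chosen group against the rest of the same cells is not a test.

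The libraries were made to compare blocking of Angiopoietin-2 (Ang2, the ligand that modulates signaling through the Tie receptors) with a control antibody in the skin vasculature of young mice. Both came from wild-type C57Bl/6j mice, labelled male and aged between P1 and P21. One library was made after 20 mg/kg of the Ang2-blocking antibody 18E5 (Ang2 Ab) every 3 days, for which the protocol gives P16 to P21, and the other after mouse IgG1 control antibody (IgG) on that schedule. Ear skin was dissociated with collagenase, and cells were stained for CD31, PDPN, CD45 and TER-119 and sorted before droplet capture and sequencing. The title of the Ang2 Ab library also carries the word control, and the treatment label was followed. There was 1 library per treatment and the number of animals behind each was not given in the labels, so no difference between treatments has a replicate check, and no p-value is given. Intervals are exact 95% intervals (Poisson for levels, Clopper-Pearson for shares, conditional binomial for ratios), and they cover counting error only. The unit throughout is the unique molecular identifier (UMI), which counts a captured transcript once. The IgG library held 42337184 UMIs in 4685 barcodes and the Ang2 Ab library 31720670 in 4331. A level is given in CPM, the summed UMIs of a gene per 1000000 UMIs of the group, which allows comparison within a gene but not between genes.

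E-selectin (*Sele*) and P-selectin (*Selp*) are adhesion receptors that let leukocytes tether to and roll along the wall of venules, and ICAM-1 (*Icam1*) then holds leukocytes that have stopped. P-selectin is kept in storage granules together with von Willebrand factor (*Vwf*), whereas E-selectin is made anew when endothelial cells are activated, through the transcription factors NF-kB and AP-1. Interleukin-6 (*Il6*) is a cytokine that activated endothelium can secrete, and the skin's venules, marked by the chemokine receptor *Ackr1*, are where leukocytes leave the blood.

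The 250 bases before the RefSeq start site of the 4 marker genes are shown because the regulators of E-selectin act through such sequence. All 4 lie on the + strand of GRCm38: *Sele* at chr1:164047984-164048233, *Selp* at chr1:164115014-164115263, *Icam1* at chr9:21015690-21015939 and *Il6* at chr5:30012864-30013113. The sequence and start sites are those of RefSeq (GRCm38.p6), and capitals mark a match, on either strand, to the AP-1 motif TGANTCA or to the NF-kB consensus.
Sele: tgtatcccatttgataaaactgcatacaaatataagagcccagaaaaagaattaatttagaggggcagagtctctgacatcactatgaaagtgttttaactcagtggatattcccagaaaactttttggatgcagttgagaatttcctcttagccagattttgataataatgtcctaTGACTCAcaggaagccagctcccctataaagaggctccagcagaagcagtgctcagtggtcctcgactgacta
Selp: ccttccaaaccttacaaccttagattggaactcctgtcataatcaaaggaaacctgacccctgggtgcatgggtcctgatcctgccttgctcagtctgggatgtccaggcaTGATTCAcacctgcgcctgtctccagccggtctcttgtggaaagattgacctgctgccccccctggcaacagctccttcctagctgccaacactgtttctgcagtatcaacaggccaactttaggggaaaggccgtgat
Icam1: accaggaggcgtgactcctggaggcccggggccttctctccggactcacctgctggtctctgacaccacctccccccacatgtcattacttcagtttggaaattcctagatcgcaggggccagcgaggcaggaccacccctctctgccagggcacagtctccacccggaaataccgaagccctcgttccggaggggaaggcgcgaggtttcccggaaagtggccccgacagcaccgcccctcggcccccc
Il6: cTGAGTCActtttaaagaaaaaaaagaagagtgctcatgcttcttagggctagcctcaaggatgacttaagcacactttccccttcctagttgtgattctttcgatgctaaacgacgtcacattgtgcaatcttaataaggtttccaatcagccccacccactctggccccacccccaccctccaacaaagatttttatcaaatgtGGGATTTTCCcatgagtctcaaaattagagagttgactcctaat
The *Sele* window held 1 AP-1 match, which begins 73 bases before the start, and no match to the NF-kB consensus. In *Selp* an AP-1 match begins 139 bases before the start, and in *Il6* an NF-kB match stands 44 bases and an AP-1 match 249 bases before it. *Icam1* had no match to either motif. Of 27025 genes with a window, 8.23% held the NF-kB consensus and 7.82% held TGANTCA. A match is a description of letters, and no match says only that these letters are not in this window.

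In the IgG library, 124 of 1189 gated BECs were Sele-positive, or 10.4% (8.75% to 12.3%), and in the Ang2 Ab library 77 of 1271, or 6.06% (4.81% to 7.51%). Outside the gate, 26 and 2 cells of sufficient quality had at least 2 *Sele* UMIs, and in the IgG library 11 of these were above the *Prox1* limit and 9 above the *Col1a2* limit. The gate of the IgG library was also deeper, with a median of 7476 UMIs per cell against 6302, and the resting venous cells differed in the same direction, with 6.31% of the gate in IgG and 4.17% in Ang2 Ab. When each cell was thinned to 3000 UMIs, which left out 264 and 317 shallower cells, the share with at least 2 *Sele* UMIs was 6.16% (4.70% to 7.91%) in IgG and 3.46% (2.39% to 4.82%) in Ang2 Ab. Counted against venous cells alone, that is Sele-positive plus resting, the shares were 62.3% (55.2% to 69.1%) and 59.2% (50.3% to 67.8%), and these intervals overlap. That count leaves out cells with 1 *Sele* UMI. Of gate cells with at least 3 UMIs of *Ackr1* and *Selp* together, 53.2% (46.4% to 60.0%) and 48.2% (39.7% to 56.8%) had at least 2 *Sele* UMIs. After thinning these shares were 26.6% and 20.7%. The intervals of the share of gated BECs were apart with all UMIs and met narrowly after thinning. As a background level, at least 2 *Sele* UMIs were seen in 0 of 248 and 0 of 223 fibroblasts, which had median depths of 14043 and 12513 UMIs, with an upper bound of 1.48% and 1.64%. In lymphatic endothelial cells (LECs) the share was 0.836% (11 of 1316, median 12543.5 UMIs) in IgG and 0.268% (2 of 747, median 11703 UMIs) in Ang2 Ab. BECs with at least 3 UMIs of the capillary genes *Rgcc* and *Car4* and fewer than 3 of *Ackr1* and *Selp* had it in 0.418% and 0.188%.

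**Figure D1:**
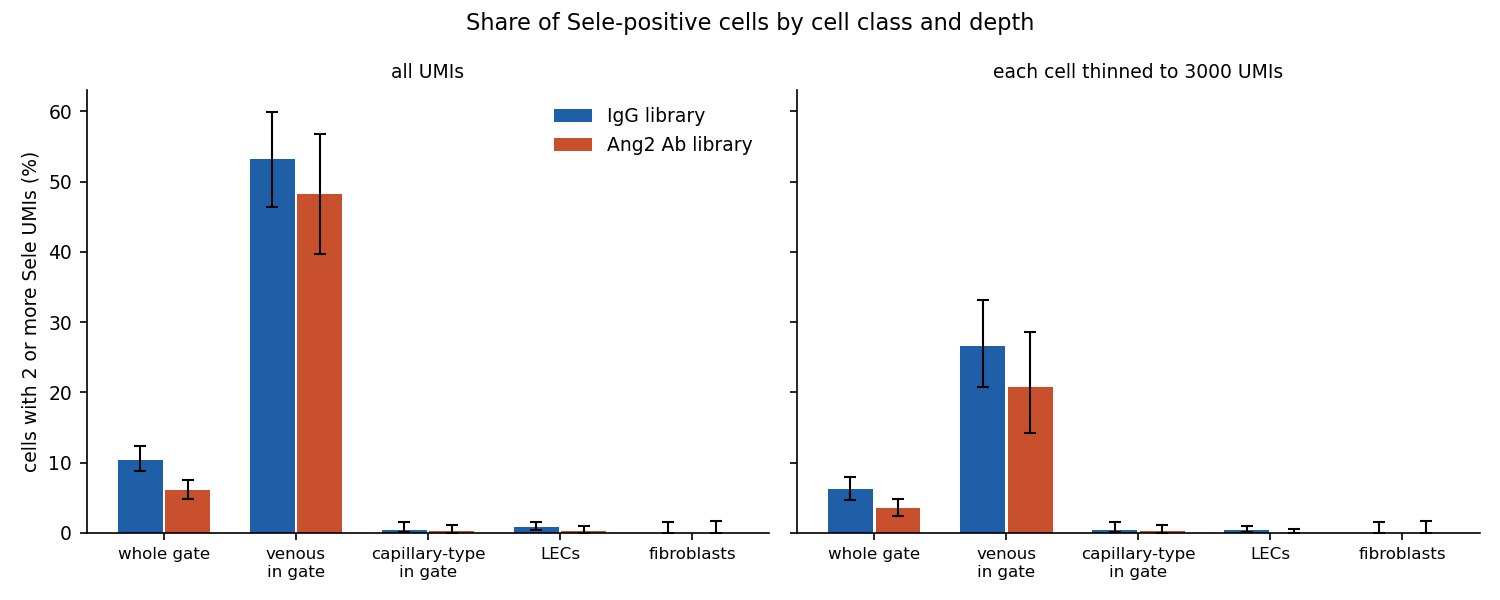
Percent of cells with at least 2 *Sele* UMIs (vertical axis, starting at 0) in the whole gate, in gated BECs with venous transcripts, in capillary-type BECs, in LECs and in fibroblasts, for IgG and Ang2 Ab, with all UMIs and after thinning to 3000 UMIs per cell; bars carry 95% Clopper-Pearson intervals. The venous cells stand far above every other group in both libraries, and fibroblasts are at 0.

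By their markers the cells were venous, as labelled. *Ackr1* and *Selp* together reached 3 UMIs in 116 of 124 members with IgG and in 68 of 77 with Ang2 Ab, although the rule asked for neither gene in them. Only 9 and 5 members had at least 3 UMIs of *Rgcc* and *Car4*, and *Ptprc*, which marks leukocytes, had 1 UMI in all members together. Members had a median of 14239 UMIs and 3909 genes in IgG and 11994 UMIs and 3475 genes in Ang2 Ab, above the resting venous cells (10925 and 8509 UMIs), and a mitochondrial share of 4.63% and 5.48% (resting cells 5.14% and 5.73%). A cut on *Sele* UMIs favors cells with more UMIs, and the part of depth in the contrasts was not tested beyond the thinned values. The libraries shared 5 barcodes, 1 of them a member. Although both libraries are labelled male, members with *Xist* and no Y-linked UMI numbered 61 in IgG and 27 in Ang2 Ab, and members with a Y-linked and no *Xist* UMI numbered 40 and 39, so that each library held cells of both kinds and in different proportions.

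*Sele* (ENSMUSG00000026582, chr1:164048234-164057677, + strand) had between 2 and 145 UMIs per member in IgG, with a median of 6, and between 2 and 61 in Ang2 Ab, with a median of 4. With IgG 43 members had no more than 3 *Sele* UMIs and 45 had at least 10, and with Ang2 Ab these numbers were 31 and 21. The summed level was 829 CPM in IgG and 786 in Ang2 Ab, a ratio of Ang2 Ab to IgG of 0.949 (0.869 to 1.03), and the mean per member was 12.4 and 9.99 UMIs. Since at least 2 *Sele* UMIs were required of every member, these values say nothing of a difference between the treatments.

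*Selp* (ENSMUSG00000026580, chr1:164115264-164150026, + strand), which lies close to *Sele* on the chromosome, had 1413 CPM in the Sele-positive cells of the IgG library, 568 in resting venous cells and 3.98 in capillary cells. With Ang2 Ab its levels in these groups were 661, 423 and 1.36 CPM. Its ratio of Sele-positive to resting was 2.49 (2.25 to 2.75) in IgG and 1.56 (1.34 to 1.83) in Ang2 Ab, although the resting cells had been chosen partly by their *Selp*. *Selp* was thus highest in the Sele-positive cells, intermediate in the resting cells and near 0 in the capillary cells of both libraries, the last of these by the rule.

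*Icam1* (ENSMUSG00000037405, chr9:21015985-21028817 in the GENCODE annotation, + strand) was measured at 937 CPM in Sele-positive, 478 in resting and 211 in capillary cells with IgG. With Ang2 Ab it stood at 937, 444 and 160 CPM. The Sele-positive cells had 1.96 times (1.75 to 2.20) and 2.11 times (1.82 to 2.45) the level of the resting cells. The Ang2 Ab ratio was 1.36 among cells with at most 5% mitochondrial UMIs and 4.59 among cells with *Xist* and no Y-linked UMI. Thinned to 3000 UMIs, *Icam1* was detected in 72.6% of Sele-positive, 57.1% of resting and 24.2% of capillary cells with IgG, and in 67.6%, 39.6% and 22.4% with Ang2 Ab, the same order in both libraries.

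*Il6* (ENSMUSG00000025746, chr5:30013114-30019981, + strand) was sparse. It had 157 CPM in Sele-positive, 84.9 in resting and 19.1 in capillary cells with IgG, and 81.8, 9.74 and 7.59 with Ang2 Ab. It was seen in 42 of 124 members (33.9%) with IgG and in 13 of 77 (16.9%) with Ang2 Ab, so most Sele-positive cells had no *Il6* UMI. After thinning it was detected in 20.5% of Sele-positive, 8.57% of resting and 3.55% of capillary cells with IgG and in 10.8%, 0% and 1.41% with Ang2 Ab. *Vcam1*, the adhesion receptor for lymphocyte and monocyte integrins, did not keep its order: its ratio of Sele-positive to resting was 1.58 (1.14 to 2.21) in IgG and 0.208 (0.115 to 0.360) in Ang2 Ab. Its IgG ratio was 0.697 among cells with at most 5% mitochondrial UMIs. With Ang2 Ab 1 resting cell held 26 of the 48 *Vcam1* UMIs, so the size of that ratio rests largely on this cell.

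**Figure D2:**
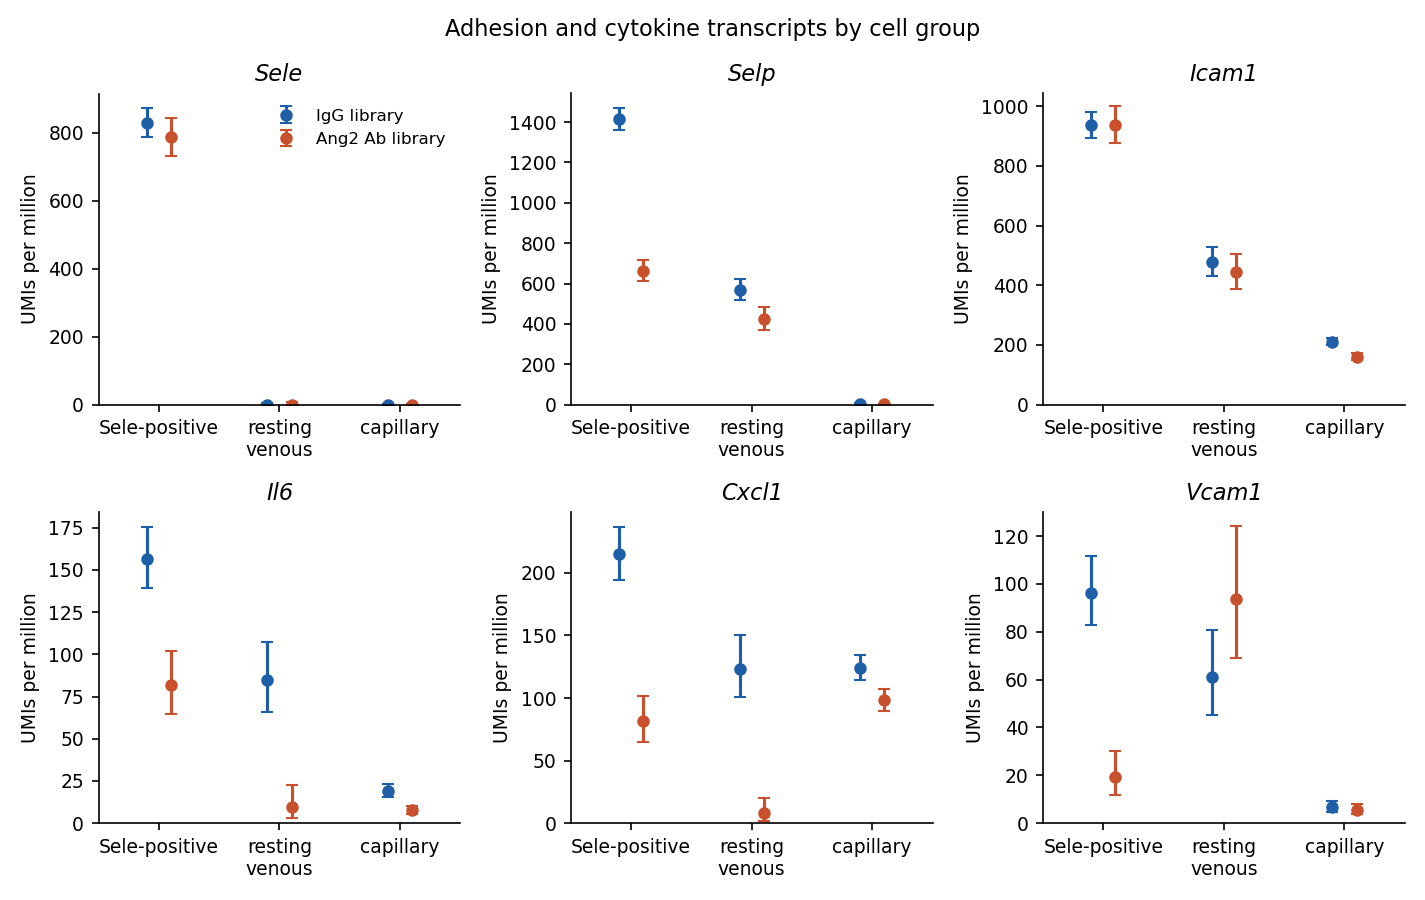
CPM (vertical axis) of *Sele*, *Selp*, *Icam1*, *Il6*, *Cxcl1* and *Vcam1* in Sele-positive, resting venous and capillary cells of the IgG and Ang2 Ab libraries, with exact 95% Poisson intervals. *Sele* is 0 in both reference groups by the rule, and *Icam1* has the same 3-step order in both libraries. *Vcam1* has opposite orders of Sele-positive and resting cells, and 1 Ang2 Ab resting cell holds 26 of its 48 UMIs there.

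Across all genes, 5756 had at least 100 UMIs in the venous cells and were compared between Sele-positive and resting cells. Of these, 10 (0.174%) were at least 2-fold higher in Sele-positive cells of both libraries and 1 (0.0174%) was at least 2-fold lower. At 1.5-fold the numbers were 86 (1.49%) higher and 96 (1.67%) lower. By any amount, 1312 genes (22.8%) were higher and 2110 (36.7%) lower in both libraries. Within 1 library alone, 82 genes were 2-fold higher and 87 lower with IgG, and 79 higher and 83 lower with Ang2 Ab, and so most differences of that size in a single library were not met by the other. The median log2 ratio over all genes was -0.09 in IgG and -0.05 in Ang2 Ab. Since the cells were split by *Sele* UMIs in these same libraries, the counts are a description. A gene can reach 100 UMIs through the Sele-positive cells alone. No condition on the resting level was set here or for the lists compared with resting cells below. Of the 10 higher genes, *Adamts1* had 139 and 76 resting UMIs with IgG and Ang2 Ab, and *Rcan1* had 52 and 36. *Ch25h* had 29 and 7, *Adamts4* 17 and 13, *Nr4a2* 17 and 9 and *Srm* 13 and 5. *Mir155hg* had 11 and 2, *Tubb6* 8 and 4, *Rasgef1a* 4 and 10 and *Hist1h2ap* 2 and 1.

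Immediate early genes, the transcription factors and feedback regulators that cells switch on within minutes of a stimulus and also during tissue dissociation, were the most uniformly higher list. Of 35 listed, 28 reached 100 UMIs. Of these 28, 26 were higher in Sele-positive than in resting cells of both libraries, 12 by at least 1.5-fold and 1 by at least 2-fold, and none was lower in both. Of all genes, 22.8% were higher and 1.49% were higher by at least 1.5-fold. The median log2 ratio was 0.95 in IgG and 0.64 in Ang2 Ab. *Fos*, a subunit of AP-1, had 4448 CPM in Sele-positive and 2272 in resting cells with IgG, and 3970 and 2469 with Ang2 Ab. *Jun*, its partner, had 2838 and 1318 with IgG and 2439 and 1491 with Ang2 Ab. *Atf3*, a stress-induced factor of the same family, had 947 against 278 with IgG, a ratio of 3.40 (2.96 to 3.93), and 759 against 483 with Ang2 Ab, a ratio of 1.57 (1.36 to 1.82). The orphan nuclear receptor *Nr4a2* was the list's member past 2-fold in both, with 91.5 against 21.2 CPM in IgG and 136 against 17.5 in Ang2 Ab, and its relative *Nr4a1* had ratios of 3.75 (2.93 to 4.88) and 1.97 (1.42 to 2.79). All of these stood higher in Sele-positive cells by more than counting error in each library, but among cells with at most 5% mitochondrial UMIs the Ang2 Ab ratio was 0.925 for *Atf3*, 1.08 for *Fos* and 1.03 for *Jun*. Among *Xist* cells, in contrast, the Ang2 Ab ratio was 10.0 for *Fos*, 6.01 for *Jun*, 6.24 for *Nr4a1* and 137 (24.4 to 5426) for *Atf3*, which had 1 UMI in the 17 resting cells of that kind.

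The same genes were also abundant in capillary cells. Against capillary cells the median log2 ratio of the list was 0.06 in IgG and 0.24 in Ang2 Ab, and 17 of 33 members were higher in Sele-positive cells of both libraries, against 26.8% of the 9059 genes measured in that comparison. *Fos* stood at 3706 and *Jun* at 2750 CPM in capillary cells with IgG, between their levels in the venous groups. The resting venous cells were thus the low group. The count also moved with the mitochondrial share: among cells with at most 5% mitochondrial UMIs, 18 of 27 tested members were higher in both libraries, with 33 and 19 resting cells left. Among cells with *Xist* and no Y-linked UMI it was 25 of 25, and among cells with a Y-linked and no *Xist* UMI, of which 16 and 26 were resting, 17 of 25. The part of dissociation in these levels was not tested.

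**Figure D3:**
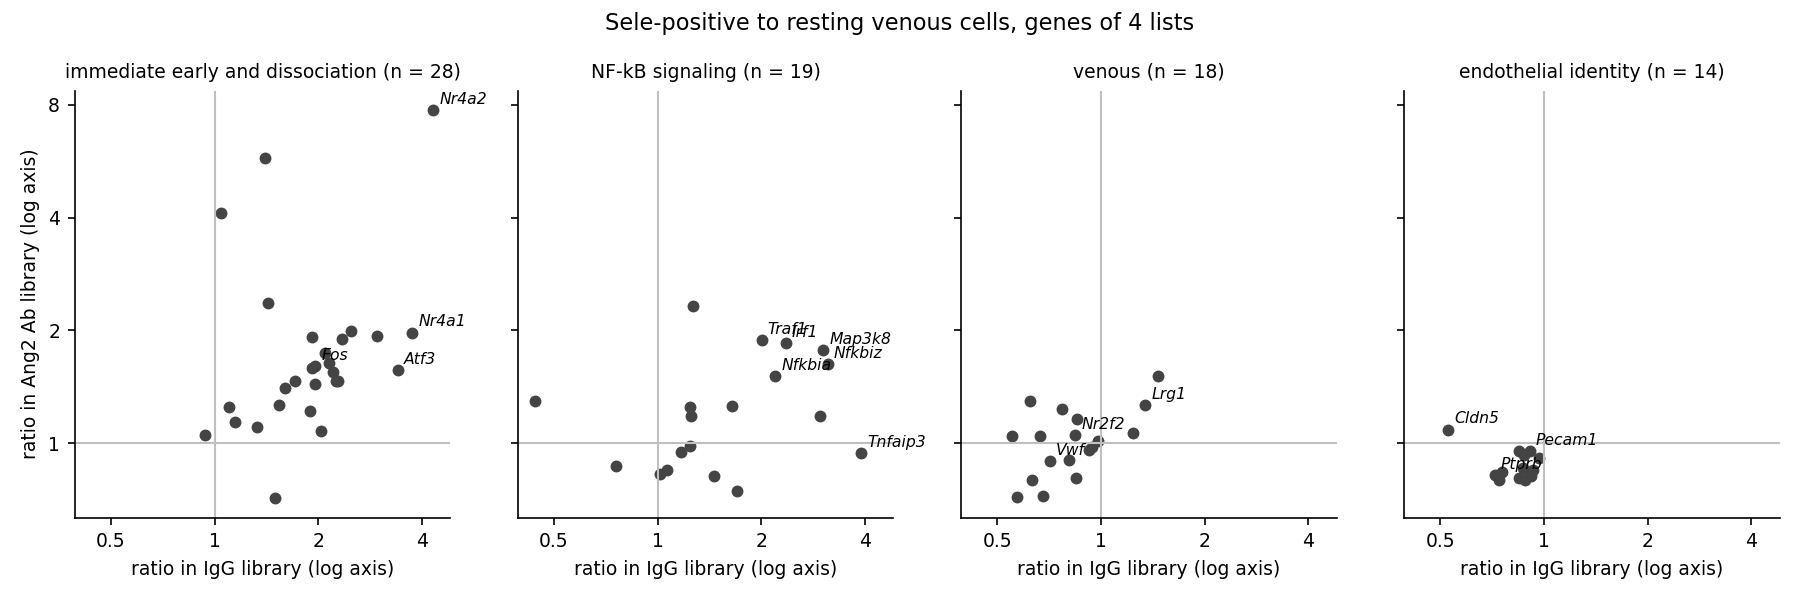
Ratio of Sele-positive to resting venous cells in the IgG library (horizontal) and the Ang2 Ab library (vertical), both on log axes, 1 point per gene with at least 100 UMIs, in panels for immediate early, NF-kB, venous and endothelial identity genes. Genes of the gate are left out. Immediate early genes (28 points) fill the quadrant above 1 in both libraries, and endothelial identity genes (14 points) lie mostly below 1.

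NF-kB signaling genes, many of which are both regulators and targets of NF-kB, showed a narrower set of differences. Of 26 listed, 19 reached 100 UMIs, 10 of them were higher in both libraries, 5 by at least 1.5-fold, and 1 was lower in both. For all genes the shares were 22.8% higher, 1.49% higher by at least 1.5-fold and 36.7% lower. Their median log2 ratio was 0.54 in IgG and 0.24 in Ang2 Ab. *Nfkbia*, the inhibitor that holds NF-kB in the cytoplasm and is remade when NF-kB is active, had 1853 CPM against 844 in resting cells with IgG, a ratio of 2.20 (2.02 to 2.39), and 1632 against 1080 with Ang2 Ab, a ratio of 1.51 (1.37 to 1.67). *Nfkbiz*, a nuclear cofactor needed for *Il6* induction, had ratios of 3.11 (2.63 to 3.70) and 1.63 (1.32 to 2.01). Among cells with at most 5% mitochondrial UMIs, which left 19 resting cells with Ang2 Ab, the Ang2 Ab ratio of *Nfkbiz* was 0.903 and that of *Nfkbia* was 1.09. *Irf1*, an interferon regulatory factor that NF-kB also induces, had 2.35 (2.00 to 2.78) and 1.85 (1.49 to 2.30), the latter being 1.29 with at most 5% mitochondrial UMIs, 1.44 among Y-linked cells and 6.89 among *Xist* cells. The kinase *Map3k8* and the adaptor *Traf1* had ratios of 3.02 and 2.00 in IgG and 1.77 and 1.88 in Ang2 Ab, where both intervals reach below 1. The deubiquitinases that switch the pathway off did not behave alike in the libraries. *Tnfaip3* had a ratio of 3.88 (2.23 to 7.30) in IgG and 0.939 (0.520 to 1.74) in Ang2 Ab, and *Cyld* had 0.440 (0.290 to 0.670) and 1.30 (0.769 to 2.27).

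Windows before the start of genes at least 1.5-fold higher in Sele-positive cells held the NF-kB consensus in 12 of 68 (17.6%), against 10 of 75 (13.3%) for genes 1.5-fold lower and 11.2% for all tested genes. For the AP-1 motif the shares were 8.82%, 5.33% and 5.39%. These are counts of letters over small sets and no test was made of them.

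Few cytokines were measurable. Of 24 listed genes, 8 reached 100 UMIs, 2 (*Il6* and *Cxcl1*) were at least 1.5-fold higher in Sele-positive cells of both libraries, and 1 (*Cxcl16*) was at least 1.5-fold lower. Among all genes 1.49% were higher and 1.67% lower by that amount. For *Il6* the ratio was 1.85 (1.41 to 2.44) with IgG and 8.39 (3.45 to 26.6) with Ang2 Ab, where the resting cells had 5 UMIs. With at most 5% mitochondrial UMIs its ratios were 1.45 and 4.31, so the 1.5-fold call was lost, and the *Xist* resting cells with Ang2 Ab had no *Il6* UMI. *Cxcl1*, which draws neutrophils, had 215 CPM in Sele-positive and 124 in resting cells with IgG, a ratio of 1.74 (1.39 to 2.19), and 81.8 and 7.80 with Ang2 Ab, a ratio of 10.5 (3.94 to 39.4). With IgG 1 resting cell held 56 of its 99 UMIs, and the ratio was 3.09 without the cell with the most UMIs in each group, 7.04 with resting cells chosen by *Ackr1* alone and 1.08 among *Xist* cells. Capillary cells had 124 and 98.2 CPM of it, so *Cxcl1* was not confined to venous cells. *Cxcl12*, a chemokine of capillaries and arteries, had 279 against 466 with IgG and 638 against 635 with Ang2 Ab, while capillary cells had 2472 and 1970. *Il6* and *Cxcl1* occurred in the same cells to some degree: with IgG, *Cxcl1* was seen in 52.4% of the 42 members with *Il6* and in 19.5% of the 82 without, and the median depths of these cells were 15428.5 and 14005 UMIs. With Ang2 Ab the shares were 30.8% of 13 and 14.1% of 64.

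*Csf3* and *Ccl2*, the granulocyte growth factor and the main monocyte chemokine, came mostly from a single cell of the IgG library. That cell held 290 of the 297 *Ccl2* UMIs and 151 of the 232 *Csf3* UMIs of the members, together with 145 *Sele*, 71 *Selp*, 42 *Icam1* and 111 *Ackr1* UMIs among 36778 in all. *Csf3* was seen in 8 members with IgG and in none with Ang2 Ab. The level of *Ccl2* is therefore a statement about 1 cell, whereas the other *Csf3* UMIs lay in further IgG members.

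Cytokine receptors and feedback genes were split. Of 22 listed, 15 reached 100 UMIs, 6 were higher and 2 lower in both libraries, and the median log2 ratios were 0.00 and 0.13. The shares of all genes were 22.8% higher and 36.7% lower in both. *Socs3*, the feedback inhibitor that IL-6 family cytokines induce, had 604 CPM against 368 with IgG and 501 against 306 with Ang2 Ab, with the same ratio of 1.64 in both (1.44 to 1.87, and 1.37 to 1.97). Its Ang2 Ab ratio was 0.908 among cells with at most 5% mitochondrial UMIs and 0.936 among Y-linked cells. *Il6st*, the shared receptor subunit for those cytokines, was abundant in venous cells (1488 in Sele-positive, 1838 in resting and 200 in capillary cells with IgG) and its ratio was 0.809 (0.760 to 0.863) in IgG and 0.901 (0.834 to 0.973) in Ang2 Ab. Its IgG ratio was 1.04 among cells with at most 5% mitochondrial UMIs.

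Venous genes separated both venous groups from capillaries more than from each other. Of 20 listed, *Ackr1* was left out as a gene that chose the groups, and 18 of the others reached 100 UMIs against resting cells. No member was past 1.5-fold in both libraries, and the median log2 ratios were -0.28 and 0.04. Against capillary cells, 16 of 18 were higher in Sele-positive cells of both libraries, where 26.8% of all genes were, and the medians were 2.20 and 2.27. *Ackr1* had 1006 CPM in Sele-positive, 734 in resting and 2.99 in capillary cells with IgG, and 794, 507 and 1.17 with Ang2 Ab, its capillary level being set by the rule. With resting cells chosen by *Ackr1* alone its ratio of Sele-positive to resting was 0.985 and 0.898, so its order rests on how the resting cells were chosen. *Lrg1*, a secreted glycoprotein of venules, had 1948 against 1445 in resting cells with IgG and 1492 against 1179 with Ang2 Ab, with 49.0 and 17.3 in capillary cells. *Vwf* went the other way, with 1098 against 1545 (ratio 0.711, 0.662 to 0.764) and 1093 against 1222 (0.894, 0.810 to 0.989). *Nr2f2*, the transcription factor that specifies vein identity, had 436 against 518 and 352 against 335, a difference whose sign was not the same in the libraries. *Plvap*, the diaphragm protein of fenestrated and venous endothelium, had ratios of 0.984 (0.933 to 1.04) and 1.01 (0.937 to 1.09), within counting error of 1.

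Genes of endothelial identity in general were slightly lower. Of 15 listed, *Flt1* was left out as a gene of the gate and the other 14 reached 100 UMIs. Of these, 13 were lower in Sele-positive cells of both libraries, against 36.7% of all genes, and none was higher in both or past 1.5-fold. The medians were -0.19 and -0.25. *Ptprb*, the phosphatase that restrains Tie2, had ratios of 0.720 (0.679 to 0.764) and 0.823 (0.760 to 0.890), and *Pecam1* (CD31, used for the sort) 0.909 (0.851 to 0.971) and 0.951 (0.877 to 1.03). Among cells with at most 5% mitochondrial UMIs, 6 of 14 were lower in both libraries. Of the arterial list (20 genes, 13 measured), 10 were lower in both libraries, against the same 36.7% of all genes. *Efnb2*, the arterial ephrin, was the member past 1.5-fold, with 23.1 against 44.9 and 24.5 against 60.4 CPM. The rule had limited 3 genes of that list. In the capillary list (18 genes, 13 measured) 2 were higher and 5 lower in both, with medians of -0.43 and 0.01. All genes had 22.8% higher and 36.7% lower, the latter near the share of this list.

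The Tie receptors, through which Ang2 acts, were expressed at like levels in both venous groups. *Tek* (Tie2) had 235 against 243 CPM with IgG and 262 against 286 with Ang2 Ab, and *Tie1* had 238 against 262 and 203 against 244, with every interval of the ratio spanning 1. Of 15 angiopoietin and Tie genes, 10 were measured, 1 was higher and 6 lower in both libraries, with medians of -0.17 and -0.09. Among all genes 22.8% were higher and 36.7% lower in both. *Angpt2* itself had 139 against 77.4 CPM with IgG and 66.5 against 85.7 with Ang2 Ab, but 94 and 82 UMIs of the IgG members came from 2 cells, and the other members together had 83 UMIs, or 46.8 CPM. Of 15 genes tied to FoxO1 and to loss of Tie2 signaling, 9 were measured. In both libraries 4 were higher and 3 lower, the latter near the share of all genes. *Trib1* (160 against 47.4, and 55.2 against 31.2) and *Gadd45b* were past 1.5-fold higher. With Ang2 Ab these ratios rest on 16 and 14 resting UMIs, and the intervals of both, 1.77 (0.998 to 3.31) and 1.65 (0.887 to 3.26), reach below 1. Among cells with at most 5% mitochondrial UMIs they were 1.40 and 0.747. *Angpt2* also belongs to this list.

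The list of matrix and protease genes held 3 of the 10 genes that were 2-fold higher in both libraries (*Adamts1*, *Adamts4* and *Ch25h*). *Adamts1*, a protease that cleaves the proteoglycan versican, had 473 against 173 CPM with IgG (2.73, 2.28 to 3.29) and 314 against 148 with Ang2 Ab (2.12, 1.64 to 2.76). *Adamts4*, a close relative, had 131 against 21.2 (6.16, 3.77 to 10.8) and 59.3 against 25.3 (2.34, 1.27 to 4.66). *Ch25h*, which makes the oxysterol 25-hydroxycholesterol, had 85.6 against 36.2 (2.36, 1.58 to 3.64) and 27.6 against 13.6 (2.02, 0.860 to 5.50). The Ang2 Ab interval of *Ch25h* thus reaches below 1. Among cells with at most 5% mitochondrial UMIs, *Adamts1* had ratios of 1.80 and 1.47 and *Adamts4* of 3.07 and 1.67, and the Ang2 Ab ratio of *Ch25h* was 1.23, so none of the 3 was then 2-fold higher in both libraries. Of the 21 genes listed, 16 were measured, 7 higher and 5 lower in both, with medians of 0.00 and 0.10, and *Adamts9* was also past 1.5-fold. The shares of all genes were 22.8% higher and 36.7% lower. The basement membrane collagen gene *Col4a1*, in contrast, had 713 against 985 and 712 against 1177, and 4110 and 4968 in capillary cells, but its Ang2 Ab ratio was 1.07 with resting cells chosen by *Ackr1* alone.

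The other genes 2-fold higher in both libraries, chosen by size alone, included *Rcan1*, the calcineurin inhibitor that calcium signaling induces, with 282 against 64.9 CPM in IgG (4.35, 3.26 to 5.90) and 142 against 70.2 in Ang2 Ab (2.03, 1.40 to 3.01). *Mir155hg*, the host transcript of the inflammatory microRNA miR-155, had 43.6 against 13.7 and 25.6 against 3.90. *Srm* (spermidine synthase) had ratios of 3.18 (1.78 to 6.20) and 2.62 (0.986 to 8.77), and *Tubb6*, a tubulin, 3.88 (1.87 to 9.33) and 2.62 (0.879 to 10.6). With IgG 1 member held 32 of the 72 *Tubb6* UMIs, which lay in 13 members. *Rasgef1a* had 5.17 (1.89 to 19.8) and 2.41 (1.20 to 5.36). *Hist1h2ap*, a replication histone, completed the 10, but 97.2% of its UMIs in the IgG members were in 1 cell. The gene 2-fold lower in both was *Ablim3*, an actin-binding protein rich in capillary cells, with 20.5 against 47.4 and 22.5 against 89.6 CPM. With Ang2 Ab its direction turned, on few UMIs, among *Xist* cells and with resting cells chosen by *Ackr1* alone. *Fmo2*, a monooxygenase, had 78.0 against 246 and 87.9 against 164, and *Cd24a*, a sialoglycoprotein, had ratios of 0.511 and 0.510, which were 2.95 (0.408 to 129) and 2.25 among Y-linked cells, the first resting on 1 resting UMI. The remaining 6 of the 10 lowest (*Aftph*, *Usf3*, *Ube3c*, *Wdsub1*, *Zfp57* and *Atp9b*) belonged to none of the lists used.

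The remaining functional lists are given beside the 22.8% of all genes that were higher and the 36.7% that were lower in both libraries. Among coagulation genes (15 listed, 9 measured) 3 were higher and 3 lower in both libraries. *Procr*, the protein C receptor, had 161 against 107 and 114 against 79.9 CPM. Of flow-responsive genes (11 listed, 9 measured) 2 were higher and 3 lower, near these shares, and *Klf2*, their master regulator, had ratios of 1.24 (1.16 to 1.33) and 1.20 (1.11 to 1.31). The interferon list (20 listed, 12 measured) had 2 higher and 5 lower in both, also near them, and *Oasl2* was its member past 1.5-fold lower. In antigen presentation (15 listed, 8 measured) 5 were higher and 1 lower in both, with medians of 0.09 and 0.23. Of 20 adhesion genes 11 were measured besides *Sele* and *Selp*, which the groups were chosen on, and of these 11, 6 were lower in both and 1, *Icam1*, was higher in both. Proliferation genes were scarce, with 2 of 10 measured, 1 higher and 1 lower.

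Transcripts of other cell types were low among members. The rule had limited *Prox1*, *Col1a2*, *Pdgfrb*, *Kcnj8* and *Vtn* in every gated cell, so low levels of these genes were set in advance. Leukocyte markers (15 genes, none with 100 UMIs) summed to 7.53 and 14.3 CPM in Sele-positive cells of IgG and Ang2 Ab and to 9.99 and 1.95 in resting cells, and *Tyrobp*, *Cd52*, *C1qa* and *Itgam* had no UMI in the members. Mural markers (10 genes, 2 measured) summed to 756 and 640 against 862 and 1068, nearly all of it *Tagln*, a smooth muscle actin-binding protein, at 674 and 578. Fibroblast markers (9 genes, none measured) summed to 60.3 in each library against 68.6 and 91.6, with *Col3a1* the highest at 18.3 and 20.4 and *Pdgfra* at 0. LEC markers (9 genes, 3 measured, 1 higher and 1 lower in both) summed to 133 and 174, with *Prox1* at 8.07 and 5.11 and *Thy1* past 1.5-fold higher. Keratinocyte markers (8 genes, 1 measured) summed to 20.5 and 30.7 against 494 and 23.4, the high value being 1 resting cell of the IgG library that held 210 of 212 *Krt15* UMIs. Platelet and erythrocyte markers (9 genes, 4 measured, 1 higher in both) summed to 229 and 276 against 286 and 207, mostly *Hbb-bs* (107 and 155). The part of such transcripts in the contrasts was not tested.

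Within the members, cells with more *Sele* per UMI also had more of several other transcripts. Members of each library were ranked by *Sele* UMIs per 10000 UMIs and cut into 3 equal parts, and the resting cells and the gated cells with exactly 1 *Sele* UMI (35 in IgG, 31 in Ang2 Ab) were placed before them. *Selp* went from 568 in resting cells to 673 with 1 *Sele* UMI and to 707, 1327 and 2456 CPM in the low, middle and high part with IgG. With Ang2 Ab the same series was 423, 361, 315, 567 and 1132. *Nfkbia* reached 2983 and 2328 in the high part, from 1151 and 1029 in the low part. *Atf3* went from 542 to 1690 with IgG and from 402 to 1274 with Ang2 Ab between the low and the high part. *Icam1* stood at 553, 922 and 1472 with IgG and at 656, 1044 and 1172 with Ang2 Ab. For each of these 4 genes the high part had the highest level of the 5 groups in both libraries, but not every gene kept that order. *Il6* went over the 3 parts from 73.0 to 163 and 263 CPM with IgG and from 15.9 to 157 and 96.4 with Ang2 Ab. *Nr4a1*, *Adamts1*, *Adamts4* and *Fosl2* were likewise highest in the high part with IgG and in the middle part with Ang2 Ab.

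*Emp1*, a membrane protein named here after its values were seen, followed the same order, from 664 to 2240 and from 881 to 1795 between the low and the high part. *Itih5*, a matrix-binding protein chosen likewise, ran the other way, at 220, 185 and 110 with IgG and 246, 198 and 42.2 with Ang2 Ab among the members, although its Ang2 Ab ratio to resting cells was 1.60 with resting cells chosen by *Ackr1* alone. Among the members *Vwf* was highest in the middle part, at 966, 1238 and 1132 with IgG and 1026, 1264 and 1030 with Ang2 Ab, but with IgG the resting cells (1545) and the cells with 1 *Sele* UMI (1404) lay above all 3 parts. Median depth over the 3 parts was 15146, 14544 and 13760 UMIs in IgG and 13049, 9767 and 12061 in Ang2 Ab. The ranking divides *Sele* by a cell's own UMIs and so places deeper cells lower, and these depths therefore decide nothing. The part of depth in these levels was not tested. These levels come from the cells ranked and are given with no test.

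**Figure D4:**
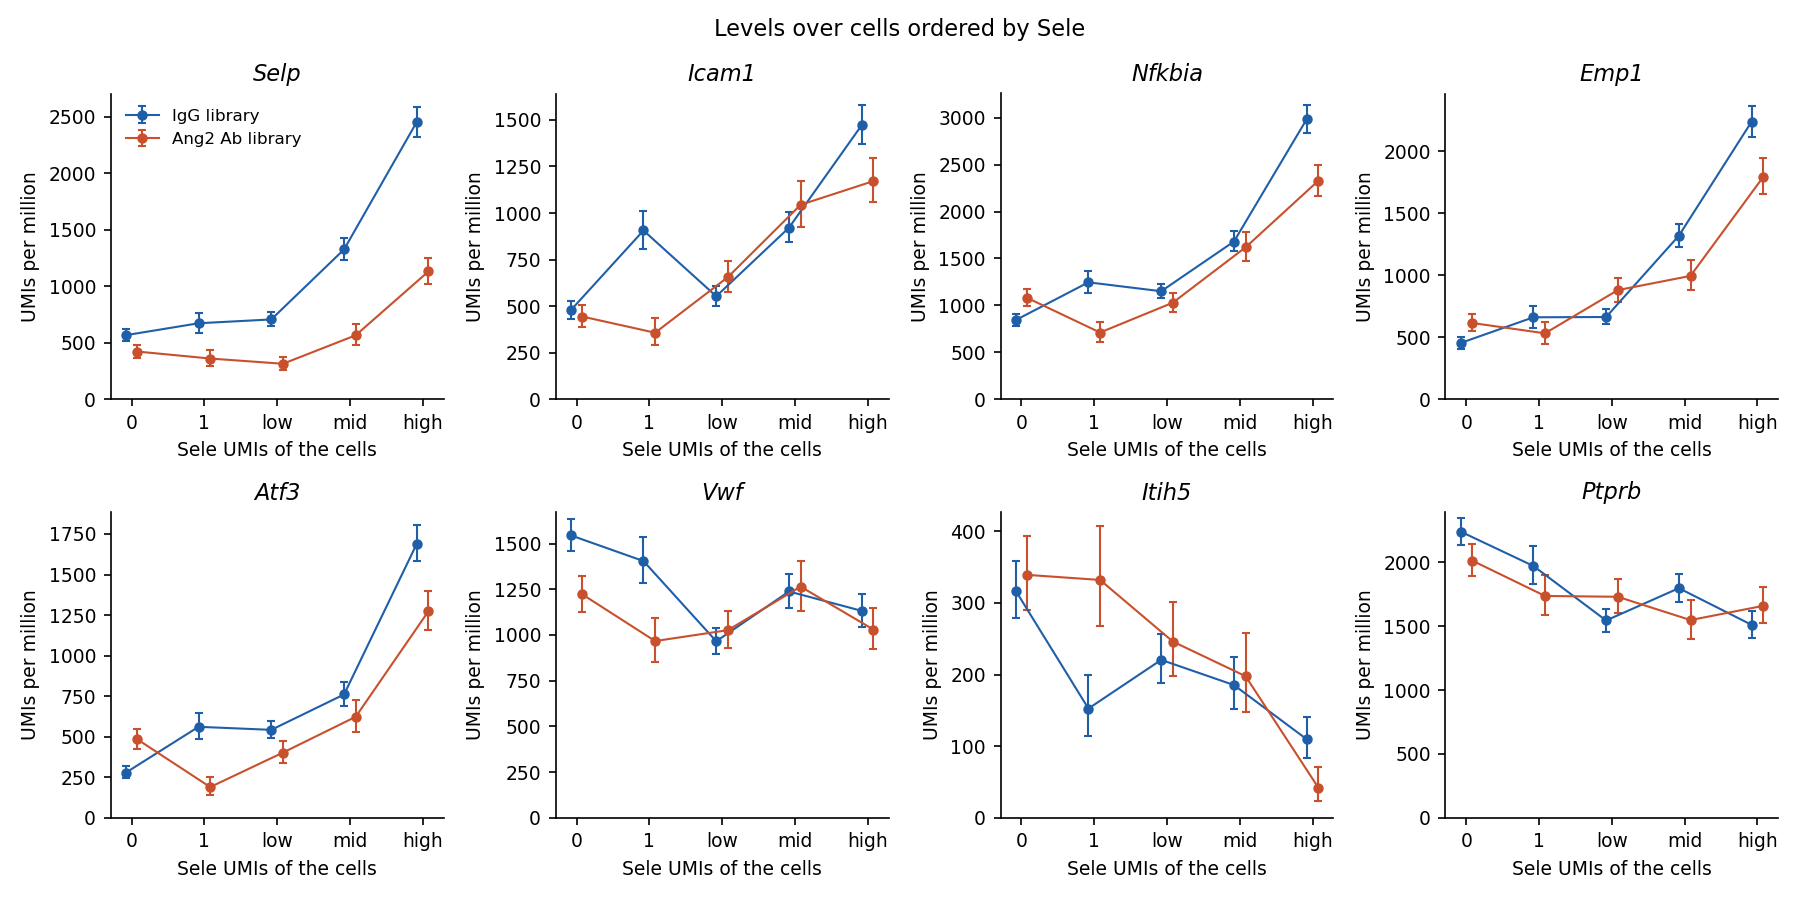
CPM (vertical axis, 95% Poisson intervals) of 8 genes in resting venous cells (*Sele* 0), gated cells with 1 *Sele* UMI, and the low, middle and high part of the Sele-positive cells by *Sele* UMIs per 10000 UMIs, for IgG and Ang2 Ab. *Selp*, *Icam1*, *Nfkbia*, *Emp1* and *Atf3* are highest in the high part in both libraries, *Itih5* is lowest there, *Vwf* among the members is highest in the middle part but with IgG stands higher in the cells with 0 or 1 *Sele* UMI, and *Ptprb* has no common order among the members.

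Near the threshold the levels did not follow one order. Cells with exactly 1, 2 and 3 *Sele* UMIs (35, 27 and 16 cells with IgG) had 673, 781 and 669 CPM of *Selp*, and with Ang2 Ab (31, 20 and 11 cells) 361, 312 and 336. *Icam1* in these cells was at 906, 490 and 710 with IgG and at 358, 553 and 559 with Ang2 Ab. *Ackr1* was at 866, 600 and 758 and at 474, 706 and 916. From 1 to 2 *Sele* UMIs, *Icam1* and *Ackr1* were lower with IgG and higher with Ang2 Ab, with intervals apart in each, and the intervals of *Selp* overlapped, so the libraries had no common step at the limit.

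Ang2 Ab and IgG were then compared within the Sele-positive cells, where 4392 genes had at least 100 UMIs. With Ang2 Ab 17 genes (0.387%) were at least 2-fold higher and 48 (1.09%) at least 2-fold lower, and by any amount 46.4% were higher and 53.6% lower, with a median log2 ratio of -0.03. A gene can reach 100 UMIs through its higher library alone. A condition on the lower level therefore kept the 3997 genes whose lower level would by itself give 100 UMIs over both libraries. Of these, 10 were at least 2-fold higher and 18 at least 2-fold lower. Since the treatments are 1 library each and hold *Xist* and Y-linked cells in different proportions, treatment, library and animal cannot be told apart.

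Among the markers, *Selp* was lower with Ang2 Ab, at 661 against 1413 CPM (ratio 0.468, 0.429 to 0.510). It was lower in resting cells as well (0.745, 0.631 to 0.877), but these were chosen partly by their *Selp*, so that value adds no support. *Icam1* was the same in both libraries (1.00, 0.923 to 1.08), and *Il6* was lower (0.522, 0.403 to 0.671). *Vcam1* had 96.3 CPM with IgG and 19.4 with Ang2 Ab, a ratio of 0.202 (0.119 to 0.324), while in resting cells its ratio was 1.53 (1.01 to 2.33). That resting ratio rests on 1 Ang2 Ab cell with 26 of 48 UMIs, and without the cell with the most UMIs in each library it was 0.818. Hence *Selp* and *Vcam1* were lower in Sele-positive cells, and *Icam1* was within counting error of no difference. In the adhesion list, *Sele* and *Selp* aside, *Vcam1* did not meet the condition on the lower level. Of the other 10, 8 were higher and 2 lower, with a median of 0.08, against 48.0% higher and 52.0% lower among all genes meeting it.

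Of the cytokines, 7 reached 100 UMIs, but *Ccl2* and *Csf3* did so through a few IgG cells alone, as described above. Of the other 5, 4 were lower with Ang2 Ab, 1 of them by at least 2-fold, and the median log2 ratio was -0.58. *Cxcl1* had 215 CPM with IgG and 81.8 with Ang2 Ab (0.381, 0.296 to 0.485), but its ratio was 1.29 (0.928 to 1.79) among *Xist* cells and 0.0539 among Y-linked cells. *Ccl2* and *Csf3* had no UMI with Ang2 Ab, which for both rests largely on the single IgG cell above. *Cxcl12* was the exception, at 279 and 638 (2.28, 2.03 to 2.57), while its ratio was 1.36 (1.17 to 1.59) in resting and 0.797 (0.777 to 0.819) in capillary cells. The list counts here and below use the condition on the lower level given above. Of the 3997 genes that meet it, 52.0% were lower and 48.0% higher, with a median of -0.02. Of NF-kB genes 11 of 12 were then lower and 1 higher, with a median of -0.33. *Nfkbiz* had a ratio of 0.629 (0.559 to 0.708) and *Nfkbia* 0.881 (0.829 to 0.935), and *Cyld*, left out by that condition, had 26.4 and 53.2 CPM.

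Of matrix and protease genes, leaving out *Timp1* and *Ch25h* by the same condition, 12 of 14 were lower and 2 higher with Ang2 Ab, 2 by at least 2-fold lower, with a median of -0.23. *Adamts9* had 313 CPM with IgG and 113 with Ang2 Ab (0.362, 0.293 to 0.445) and was lower to the same extent in resting cells (0.370, 0.250 to 0.535), but not in capillary cells (0.928, 0.835 to 1.03). *Adamts4* had 131 and 59.3 (0.453, 0.334 to 0.606), but its ratio was 1.12 (0.748 to 1.65) among *Xist* cells and 0.187 among Y-linked cells. *Ch25h* had 85.6 and 27.6 (0.323, 0.206 to 0.487), with ratios of 0.377 in resting and 0.291 in capillary cells. *Timp1*, a protease inhibitor, had 99.6 and 14.3, but 63.8% of its IgG UMIs were in 1 cell.

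The following counts stand beside the 52.0% of all genes that were lower and the 48.0% that were higher. Interferon response genes were lower in 5 of 6, with a median of -0.40, and *Isg15* had 102 and 35.8 CPM (0.350, 0.237 to 0.504). Antigen presentation genes were lower in 6 of 7, with a median of -0.18. Over all 8 tested genes of each of these 2 lists, the medians were -0.33 and -0.19 in Sele-positive cells. In resting cells they were -0.71 and -0.44. Closer to the share of all genes, immediate early genes were lower in 18 of 27 with none past 2-fold and a median of -0.16, and venous genes in 11 of 17 with a median of -0.30, against -0.34 in resting cells. *Ackr1* had a ratio of 0.790 (0.725 to 0.859). Coagulation genes were lower in 6 of 7. Capillary genes were higher in 10 of 12 with a median of 0.42, against -0.05 in both resting and capillary cells, and *Cd36*, a fatty acid transporter of capillaries, had 407 and 724. Flow-responsive genes were higher in 8 of 9 with a median of 0.31, and *Edn1*, the vasoconstrictor endothelin-1, had 312 and 547 (1.75, 1.55 to 1.97). Endothelial identity genes were evenly split, 7 higher and 7 lower. In the list of receptors and feedback genes 8 of 14 were higher, with *Socs3* at 0.829 (0.744 to 0.922) and *Lepr*, the leptin receptor, at 1.56 (1.41 to 1.73). Arterial genes were lower in 6 of 9.

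In the angiopoietin and Tie list 3 were higher and 6 lower, with a median of -0.22, and *Tek* (1.11, 0.950 to 1.30) and *Tie1* (0.855, 0.720 to 1.01) were within counting error of no difference. *Angpt2* had a ratio of 0.477 (0.357 to 0.628) in Sele-positive cells and 2.08 (1.80 to 2.40) in capillary cells, the first of which rests on the 2 cells named above. *Trib1* had 160 and 55.2 CPM (0.344, 0.253 to 0.461) and *Apln*, the apelin ligand, 178 and 100 (0.562, 0.444 to 0.707). Of the list on FoxO1 and Tie2 inactivation, 5 of 9 were higher and 4 lower, with a median of 0.10, so these 3 lower members were not typical of it.

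The 5 genes highest with Ang2 Ab by ratio were *Thy1*, *Slco2b1*, *Mcc*, *Pik3ip1* and *Vps13d*. *Thy1*, a surface glycoprotein that binds leukocyte integrins, had 18.3 and 68.5 CPM (3.74, 2.44 to 5.83). *Slco2b1*, an organic anion transporter, had 94.7 and 274 (2.89, 2.38 to 3.52), with a ratio of 1.79 (1.40 to 2.29) in resting and 1.06 (0.925 to 1.22) in capillary cells. *Pltp*, a phospholipid transfer protein named after its values were seen, had 218 and 505 (2.32, 2.03 to 2.65) and a ratio of 0.745 (0.691 to 0.803) in capillary cells. In resting cells the ratio of *Pltp* was 1.96 (1.47 to 2.60) among *Xist* cells and 1.20 (0.895 to 1.61) among Y-linked cells. The 5 lowest were *Ccl2*, *Csf3*, *Mt2*, *Hist1h2ap* and *Stmn1*, and for each of these 5 most of the UMIs of the IgG members were in a single cell (53.6% for *Mt2*, 97.2% for *Hist1h2ap* and 69.7% for *Stmn1*). Genes lower with Ang2 Ab whose UMIs were spread over more cells, likewise named after their values were seen, were *Igfbp4* (439 and 202 CPM) and *Ptn* (258 and 114 CPM), with ratios of 0.461 (0.393 to 0.540) and 0.443 (0.358 to 0.545). Both genes were lower in resting venous cells too, with ratios of 0.525 and 0.355, and in capillary cells their ratios were 1.29 and 0.152.

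**Figure D5:**
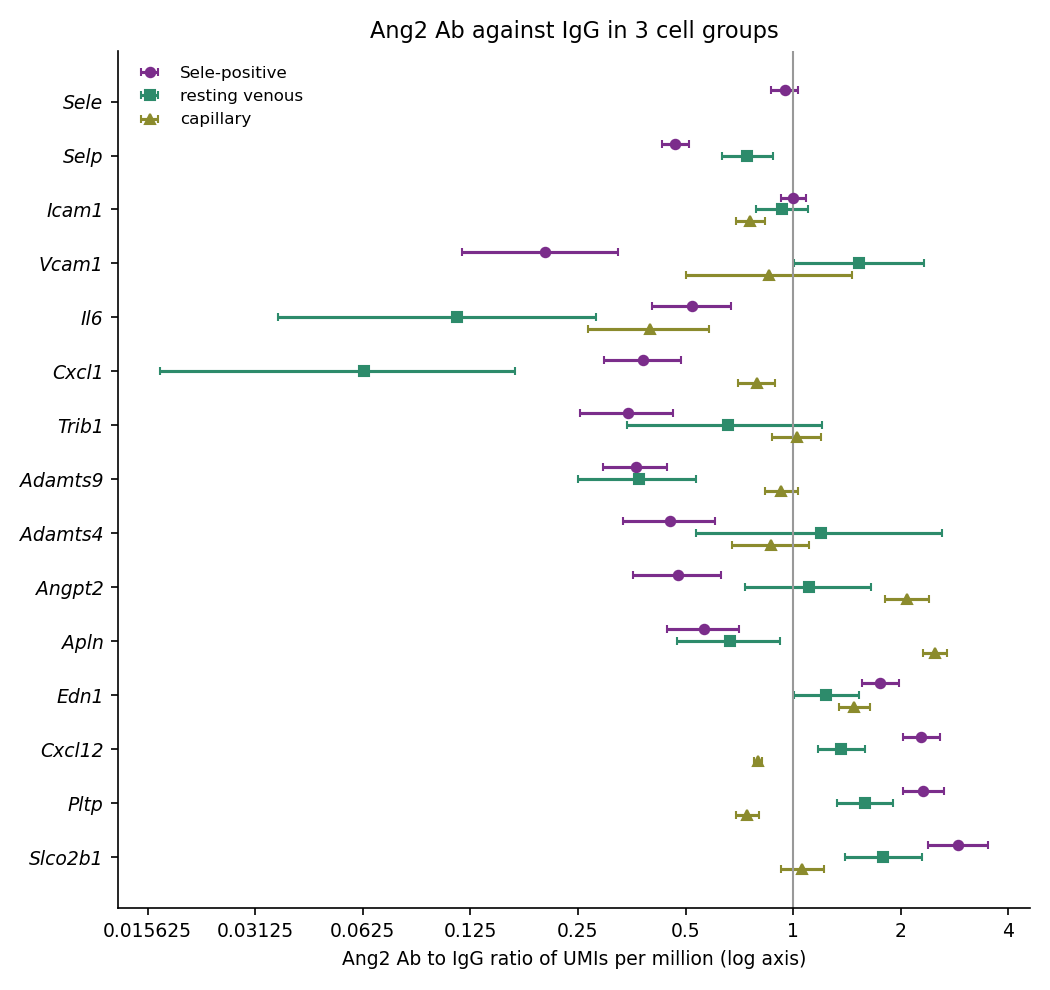
Ratio of Ang2 Ab to IgG (horizontal log axis, exact 95% intervals) of 15 genes in Sele-positive, resting venous and capillary cells; 1 means no difference between the libraries. *Il6*, *Cxcl1* and *Adamts9* lie below 1 in both venous groups, as does *Selp*, by which the resting cells were partly chosen. *Icam1* lies at 1 in Sele-positive cells, and *Vcam1* lies on opposite sides of 1 in the venous groups, where the resting value rests on 1 cell with 26 of 48 UMIs.

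The ratios were recomputed within cells that had *Xist* and no Y-linked UMI and within cells that had a Y-linked and no *Xist* UMI. *Selp* (0.476 and 0.570), *Vcam1* (0.216 and 0.188), *Il6* (0.231 and 0.482), *Adamts9* (0.532 and 0.275), *Trib1* (0.518 and 0.218), *Ch25h* (0.173 and 0.312) and *Isg15* (0.467 and 0.289) were lower with Ang2 Ab in both kinds of cell. *Cxcl12* (1.93 and 2.93), *Slco2b1* (2.71 and 4.72), *Thy1* (5.54 and 4.64) and *Pltp* (2.25 and 2.84) were higher in both. *Edn1* had 2.78 in Y-linked cells, and in *Xist* cells its ratio of 1.18 (0.958 to 1.45) was within counting error of 1. The ratio of *Icam1* was 1.36 (1.21 to 1.53) in *Xist* cells and 0.701 in Y-linked cells, and that of *Angpt2* was 2.05 (1.09 to 3.80) and 0.231, on opposite sides of 1. *Cxcl1* and *Adamts4* had 0.0539 and 0.187 in Y-linked cells, and in *Xist* cells their ratios of 1.29 (0.928 to 1.79) and 1.12 (0.748 to 1.65) were within counting error of 1.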

How the data were processed

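Gene expression was measured by droplet single-cell RNA sequencing in 1 IgG and 1 Ang2 Ab library. The deposited matrices hold raw UMI counts of 32285 genes per cell barcode, which the authors made with Cell Ranger 6.0.2 on GRCm38 per the file headers, with cells already called. The 8 plate-based libraries of the series hold sorted LECs and were not used here. Cells were gated by the limits given in the results, counts were summed per group and library, and ratios of CPM were taken for genes with at least 100 UMIs in the cells compared with scipy 1.17.1 and numpy 2.4.6 under Python 3.11.15, tables being handled in pandas 2.3.3 and plots in matplotlib 3.10.9. No doublet caller was run, and the 5% of gated cells with the most UMIs were left out as an alternative. A fold against a group at 0 used a floor of 3 counts and is a bound, as for *Ccl2* and *Csf3* with Ang2 Ab, which were ranked and called by it. Scripts were tested on simulated data. Named genes were the 4 markers, members of 23 lists, the 10 highest and 10 lowest ratios of Sele-positive to resting cells (by the library with the smaller difference) and the 5 highest and 5 lowest of Ang2 Ab to IgG, leaving out genes of the gate, mitochondrial, Y-linked genes and *Xist*. The cells and lists were chosen with earlier results of these data known. Positions are from GENCODE vM21, and promoter sequence is from RefSeq, searched on both strands.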

Additional observations from a re-analysis of the deposited data

Results flagged for a closer look

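For 5 genes the difference between Ang2 Ab and IgG had opposite directions in 2 cell groups. The ratio of Ang2 Ab to IgG of *Angpt2* was 0.477 in Sele-positive and 2.08 in capillary cells, and that of *Apln* was 0.562 and 2.50 in these groups. The ratio of *Rgcc* was 1.58 in Sele-positive and 0.360 in resting venous cells, that of *Tnfaip3* was 0.513 and 2.12, and that of *Vcam1* was 0.202 and 1.53. With 1 library per treatment the difference between the groups was not tested for any of the 5. The low ratio of *Angpt2* in Sele-positive cells rests on 2 IgG cells with 94 and 82 UMIs. The resting ratio of *Vcam1* rests on 1 Ang2 Ab cell with 26 of 48 UMIs and was 0.818 without the cell with the most UMIs in each library. The Sele-positive ratio of *Rgcc* was 0.307 without the 5% of gated cells with the most UMIs, and the resting ratio of *Tnfaip3* was 0.601 among *Xist* cells, so the opposite directions of these 3 genes also depend on a few cells or on the kind of cell.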

How the results depend on the processing

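The share of Sele-positive cells in the gate (10.4% in IgG and 6.06% in Ang2 Ab) was 8.70% and 3.28% with at most 5% mitochondrial UMIs, 13.4% and 8.50% with at least 1 *Sele* UMI, 6.81% and 3.62% with at least 4, 5.54% and 3.14% with the whole rule applied to cells thinned to 3000 UMIs, 13.6% and 7.80% among cells with Y-linked UMIs, and 62.3% and 59.2% of venous cells. The IgG share was the higher one under each of these. Genes 2-fold higher and lower in Sele-positive than in resting cells (10 and 1) numbered 32 and 7 with at least 4 *Sele* UMIs, 36 and 8 with the mean of per-cell values, 42 and 11 with resting cells chosen by *Ackr1* alone, 34 and 64 with a minimum of 30 UMIs, 4 and 0 with 300, 86 and 96 at 1.5-fold, 2 and 0 at 3-fold, 37 and 6 among *Xist* cells, 19 and 2 among Y-linked cells, and 34 and 2 without the top cell of each gene, which by construction lowers the smaller resting group more. The number higher was 24 in cells with no UMI of other cell types, and the number lower was 6 without the 5% of cells with the most UMIs and 2 when thinned. Genes 2-fold higher and lower with Ang2 Ab (17 and 48) numbered 5 and 9 when thinned, 120 and 186 with 30 UMIs, 5 and 7 with 300, 177 and 244 at 1.5-fold and 1 and 11 at 3-fold. Under the condition on the lower level they numbered 10 and 18. The number higher was 9 with at least 4 *Sele* UMIs, 6 without the 5% of cells with the most UMIs, 34 among Y-linked cells and 10 without the top cell, and the number lower was 31 with no UMI of other cell types and 20 among *Xist* cells. Of the 10, 17 and 48 genes, those shared with the reported calls numbered 7, 10 and 34 without the top cell, 1, 7 and 25 with at most 5% mitochondrial UMIs, 3, 4 and 18 without the 5% of cells with the most UMIs, 4, 3 and 6 among *Xist* cells, 5, 5 and 13 among Y-linked cells, and 2, 3 and 3 when thinned. Of 838 recomputed gene ratios, 607 stayed within the interval reported. The direction turned in 28, of which 10 had been at least 2-fold and 18 had been smaller or stayed within the interval reported. Among *Xist* cells, *Tubb6* (0.747, 0.126 to 5.10, IgG) and *Ablim3* (2.15, 0.241 to 102, Ang2 Ab) reversed against resting cells, and *Cxcl1* (1.29), *Hist1h2ap* (11.1, 1.10 to 546), *Angpt2* (2.05) and *Adamts4* (1.12) reversed for Ang2 Ab against IgG. *Ablim3* was 2.05 (0.616 to 10.7) with resting cells chosen by *Ackr1* alone. Without the 5% of cells with the most UMIs, *Hist1h2ap* was 1.04 (0.0939 to 7.24) and *Angpt2* 1.17, and without its top cell *Hist1h2ap* was 1.42 (0.209 to 8.42). These values of *Tubb6*, *Ablim3* and *Hist1h2ap* rest on at most 3 UMIs in 1 of the groups compared. Other than where a single cell is named, the cause was not tested. Leaving out the top cell, in any group, the share of venous cells and the condition on the lower level were alternatives chosen after seeing the data. No paired analysis was possible because there is 1 library per treatment, and leaving out a replicate could not be done for the same reason. At these depths a gene at 100 UMIs carries a wide counting interval, and sparse genes such as *Il6* cannot be called absent from a cell without a UMI.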

Other observations

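A single member of the Ang2 Ab library held 49 *Cd74*, 11 *H2-Aa*, 12 *H2-Ab1* and 10 *H2-Eb1* UMIs, genes of antigen presentation by MHC class II, together with 4 *Sele* UMIs.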
